A study of Mus musculus with 10 samples.

Results

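The Rab genes encode the largest family of small GTPases of the Ras superfamily, the proteins that give each membrane compartment of a cell its identity. All genes whose current mouse symbol is Rab followed by a number, with or without a letter, were taken, and each was read from the brightest probe set annotated to it alone. All 59 such genes in the RefSeq gene table had a probe set, out of 18193 genes measured (0.324%), and their names, not their measured values, chose them. A Rab is switched on when an exchange factor loads it with GTP, recruits effectors that move, tether and fuse vesicles, and is switched off by a GTPase-activating protein. A lipid tail holds it in the membrane, and a GDP dissociation inhibitor carries the inactive form through the cytosol. Keratinocytes, the epithelial cells of the epidermis, use this traffic to recycle integrins and desmosomal cadherins, to take up melanin and, as they mature, to secrete lamellar granules, which are lysosome-related organelles.

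RNA came from primary keratinocytes of mouse skin, cultured for 3 to 4 days in low calcium medium (0.05 mM calcium, 8% fetal calf serum), and was hybridised to 1 Affymetrix Mouse430_2 array per sample. Of the 10 arrays, 5 carried RNA labelled Sgpp1-/- (KO; samples 8, 9, 10, 21 and 23) and 5 carried RNA labelled Sgpp1+/+ (WT; samples 1 to 5). Both groups had the same medium and the same stated range of days in culture, and the day of each sample is not given. Sgpp1 encodes sphingosine-1-phosphate phosphatase 1, which removes the phosphate from a signalling sphingolipid. The question was which transcripts differ between the genotypes. The age, sex and strain of the mice, the design of the deletion and whether each sample was a separate animal are not given in the sources used here, so p-values measure the spread between these samples, which may be technical. Values are given below in the sample order 8, 9, 10, 21, 23 for KO and 1 to 5 for WT.

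Only the brightest of the 3 Sgpp1 probe sets was read, and it was not lower in KO. The Sgpp1 signal was 8.46, 9.01, 8.69, 8.92 and 9.03 in the arrays labelled KO, against 6.25, 7.82, 8.24, 8.33 and 7.70 in the arrays labelled WT (log2 signal; difference 1.15, limma adjusted p = 0.102). Where its probes lie relative to the deleted stretch is not given in the sources used here, so this signal does not check the genotype, and KO and WT below name the labels. The keratinocyte identity was plain in both groups: Krt5 averaged 12.73 in KO and 12.78 in WT, and Krt14 averaged 12.72 in KO and 12.69 in WT. Array WT 1 stood apart, correlating with the rest at 0.955 on average, where every other array reached at least 0.967. Among the 44 Rab genes with a mean log2 signal of at least 5, WT 1 was the lowest of all 10 arrays for 18 and KO 21 for 10; within its own group each was the lowest for 24. WT arrays were numbered 1 to 5 and KO arrays 6 to 10 in the labels, so array order and genotype cannot be told apart. In bulk RNA a lower signal from fewer cells of a type and from less RNA per cell cannot be told apart.

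In KO, 3 of the 59 Rab genes (5.08%) were higher at a limma adjusted p under 0.05, against 2.30% of all 18193 genes. They were Rab38 and Rab27b, both of lysosome-related organelles, and Rab24, of the autophagic pathway. No Rab gene was lower at that threshold, against 0.346% of all genes, although 3 were lower at an unadjusted p under 0.05 (5.65% of all genes were). At the same unadjusted limit 11 Rab genes were higher, a share of 18.6% against 7.33% of all genes. KO and WT values did not overlap for 7 Rab genes (11.9%), against 4.38% of all genes. In 5 of these KO lay above WT (Rab38, Rab11a, Rab24, Rab10 and Rab40c), against a share of 3.36% of all genes, and in 2 it lay below (Rab23 and Rab4a), against 1.02%. This holds only for the brightest probe set of each gene. On every other probe set of these 7 genes the groups overlapped.

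Most Rab differences were small, although their median size was not below that of all genes. The median KO minus WT difference was 0.02 on the log2 scale over the 59 Rab genes and -0.01 over all genes. Within 0.5 of 0 lay 50 of the 59, a share that was not taken over all genes. The Rab genes split into 31 above 0 and 28 below (52.5% above 0, against 47.6% of all genes). The median size of a difference, whatever its sign, was 0.20 for the Rab genes and 0.15 for all genes. Among the 44 Rab genes with a mean signal of at least 5, the median was 0.11, against -0.02 for all genes as bright. The other 15, with means between 1.87 and 4.85, had differences between -0.37 and 0.26 and none was called. The array medians were 5.02 to 5.17, so these dim probe sets gave little signal to compare.

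**Figure D1:**
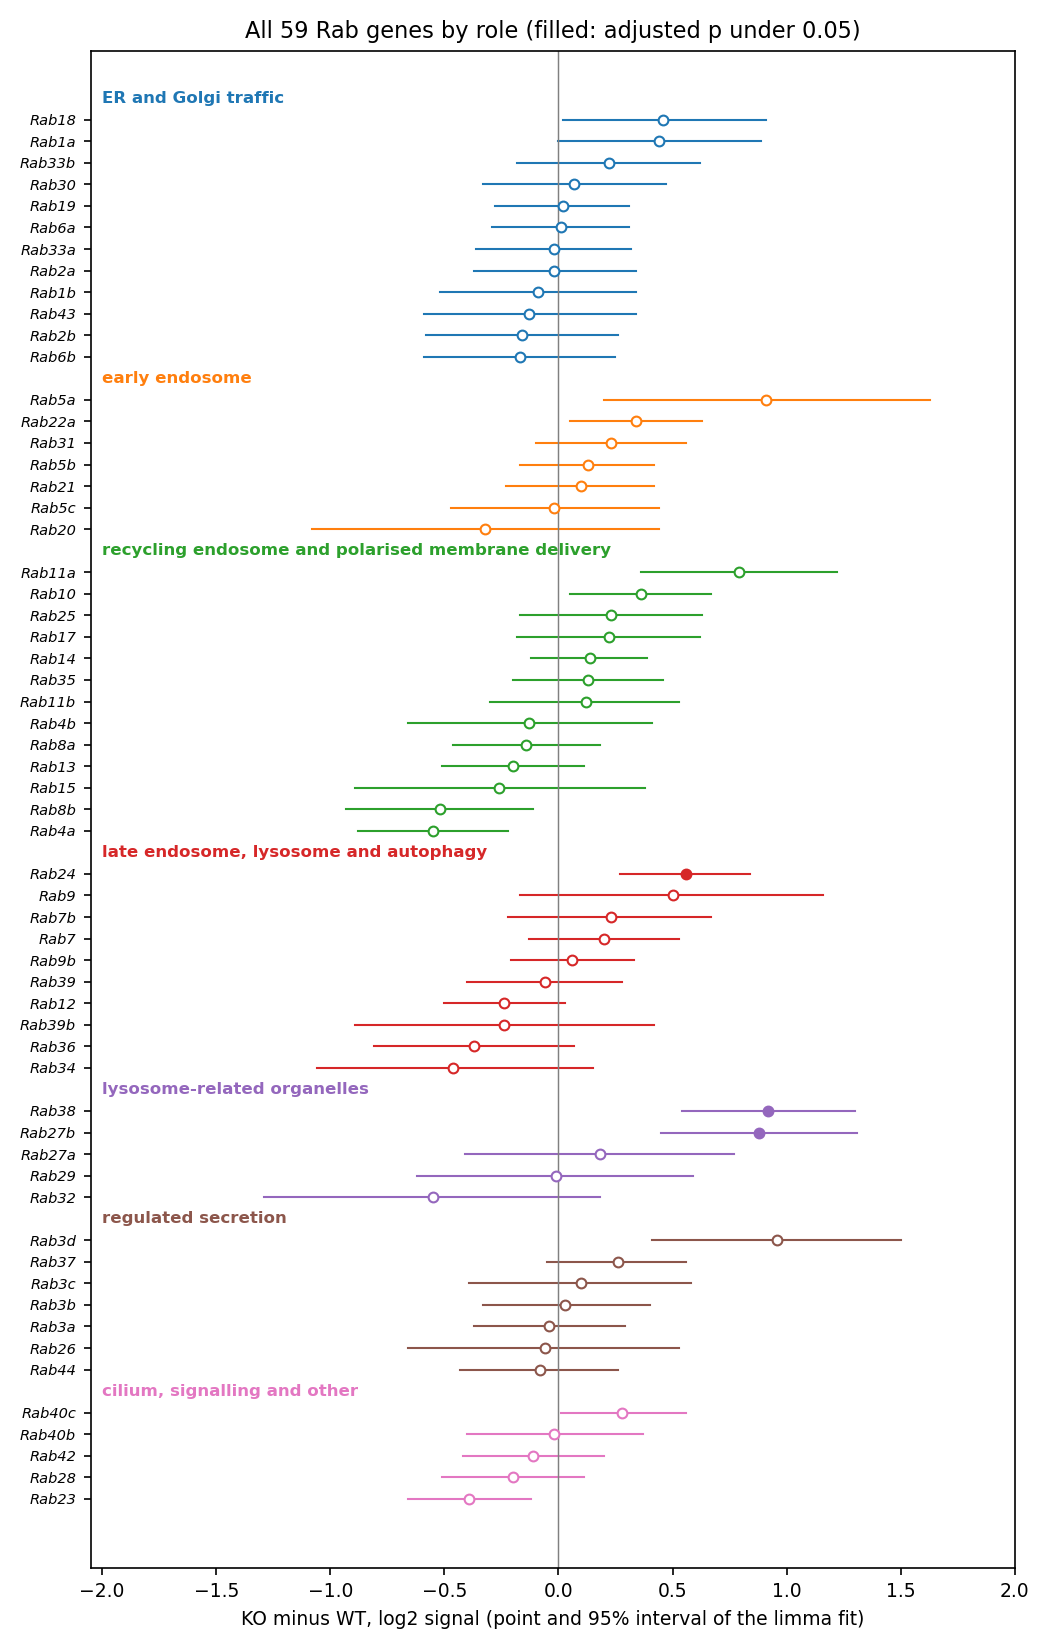
Difference of each of the 59 Rab genes between KO and WT (log2 signal, horizontal axis), in rows grouped by cellular role. Points are the limma estimates and lines their 95% intervals (5 arrays each); the filled points, Rab38, Rab27b and Rab24, had an adjusted p under 0.05, and 50 of the 59 points lie within 0.5 of 0.

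Lysosome-related organelles are storage compartments, such as melanosomes and lamellar granules, that share parts with lysosomes. All 5 Rab genes of this group had a mean signal of at least 5, and 2 of the 5 were called higher. Rab38, which with Rab32 brings melanogenic enzymes to the melanosome and which is mutated in the chocolate mouse, had the smallest adjusted p of the family. Its log2 signal was 9.16, 9.28, 9.23, 9.10 and 9.25 in KO, against 7.66, 8.61, 8.49, 8.16 and 8.49 in WT. Every KO array lay above every WT array, and the KO arrays spread little (SD 0.07, against 0.39 in WT, n = 5 each). The difference was 0.92 ± 0.18 (SE), or 1.90-fold, with a limma adjusted p of 0.0122.

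Rab27b, which docks secretory granules and exosome-bearing endosomes at the plasma membrane, had log2 signals of 8.65, 8.88, 8.93, 8.85 and 8.54 in KO, against 7.63, 8.59, 8.04, 7.70 and 7.49 in WT. The groups overlapped only through array WT 2, which was above the lowest KO array. Rab27b was 0.88 ± 0.20 (SE) higher, or 1.84-fold, with a limma adjusted p of 0.0337. Its close paralogue Rab27a, which holds melanosomes on actin through melanophilin and myosin Va, was 6.66 ± 0.41 in KO and 6.48 ± 0.57 in WT (SD, n = 5 each; adjusted p = 0.881). Rab32 went the other way without passing the test, at 6.42 ± 0.56 in KO and 6.98 ± 0.71 in WT (difference -0.55, adjusted p = 0.577), and its difference was -0.29 without WT 2. Rab29, a paralogue linked to the kinase LRRK2, was level in its means, with 6.75 in KO and 6.77 in WT.

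The call for Rab38 held in each of 10 fits that left out 1 array, while that for Rab27b held in 2 of those 10 (adjusted p 0.00405 to 0.109). When all probe sets of a gene were averaged, the difference was 0.78 for Rab38 (adjusted p = 0.0721) and 0.67 for Rab27b (adjusted p = 0.0772), whose average takes in probe sets of mean signal 4.45 and 2.74. Melanocytes, which use Rab38, Rab32 and Rab27a, can persist in keratinocyte cultures, and their markers were present on all arrays. The summed signal of 10 melanocyte markers was 11.65, 12.57, 12.55, 12.40 and 13.25 in KO, against 10.15, 11.12, 12.34, 11.97 and 13.32 in WT (log2 of the sum). None of the 10 was called, but all 10 averaged higher in KO, by 0.26 (Sox10) to 1.12 (Gpnmb), with a median difference of 0.69. Rab27a was highest on KO 23 (7.36) and on WT 5 (7.39), which were also the highest of their groups in that sum. On WT 5 Rab38 was 8.49 and Rab27b was 7.49, both below every KO array. With the marker sum as a covariate, a setting added after the data were seen, Rab38 differed by 0.79 (adjusted p = 0.0231) and Rab27b by 0.94 (adjusted p = 0.0358). What part melanocytes had in the Rab differences was not tested.

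**Figure D2:**
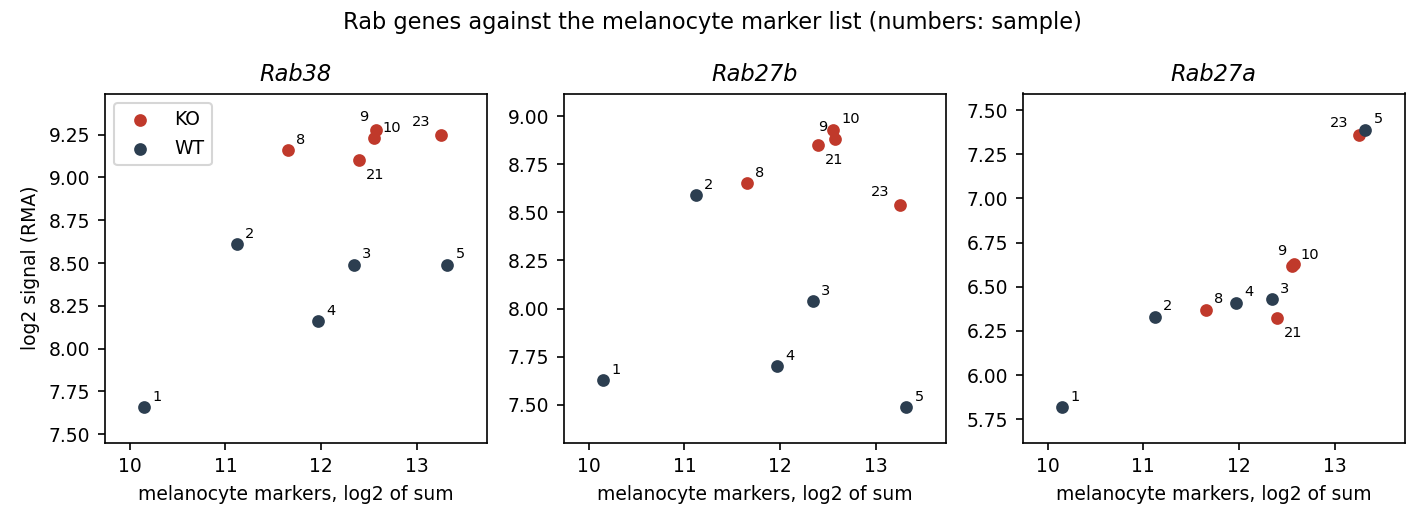
Log2 signal of Rab38, Rab27b and Rab27a (vertical axes) against the log2 of the summed signal of 10 melanocyte markers (horizontal axes), each point an array with its sample number. At a marker sum of 13.25 (KO 23) and 13.32 (WT 5), Rab27a is nearly equal on the 2 arrays, while Rab38 and Rab27b are higher on KO 23.

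Suprabasal keratinocyte markers moved with genotype and stand beside every result here. All 12 of 12 measured were called higher in KO, and their summed log2 signal was 14.87 to 15.19 in KO and 13.06 to 14.01 in WT. Krt10, the keratin of the first suprabasal layers, averaged 11.48 ± 0.19 in KO and 9.12 ± 0.84 in WT (SD, n = 5 each). None of 9 basal markers was called, and their sum was 14.42 to 14.72 in KO and 14.40 to 14.53 in WT. The part of this shift in the Rab differences was not tested. The other marker lists overlapped between the groups. In KO the fibroblast sum was 9.68 to 12.25. In WT it was 13.86 on WT 3 and 13.62 on WT 4, both above every KO array. On the other WT arrays it was 9.53 to 10.17. What part fibroblasts had in the Rab differences was not tested. The Langerhans and myeloid sum was 9.0 to 11.30 in KO and 9.46 to 11.40 in WT, and 6 of its 10 markers had means under 5. The T cell sum was 7.13 to 8.59 in KO and 6.26 to 10.14 in WT, the mast cell sum 6.79 to 7.19 in KO and 6.69 to 7.14 in WT, and the endothelial sum 6.00 to 6.58 in KO and 6.31 to 6.62 in WT. Means were under 5 for 4 of the 5 T cell, 7 of the 8 mast cell and 6 of the 6 endothelial markers. The T cell sum rests mainly on Thy1 (mean 7.55), which is also in the fibroblast list, so it does not measure T cells alone. The neuron and Merkel cell sum was 8.03 to 9.43 in KO and 8.74 to 9.27 in WT. Of its 9 markers, 1 was lower and 7 had means under 5.

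Late endosomal and autophagic Rabs direct cargo to lysosomes. Of the 10 in this group, 1 was called higher and their median difference was 0.00. Rab24, an unusual Rab with low GTPase activity that helps clear autophagic compartments, had log2 signals of 9.06, 9.10, 9.31, 9.07 and 9.23 in KO, against 8.86, 8.73, 8.56, 8.38 and 8.45 in WT. Every KO array lay above every WT array. The difference was 0.56 ± 0.13 (SE), or 1.47-fold, with a limma adjusted p of 0.0443, and it passed the threshold in 1 of the 10 fits that left out an array, the one without WT 1 (adjusted p = 0.0183; highest of the 10, 0.140). Its brightest probe set is of a design shared between transcripts. The second, designed to be specific, differed by 0.72, and there KO 8 (7.89) lay below WT 3 (7.94).

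Rab7, the main Rab of late endosomes and lysosomes, was 10.27 ± 0.17 in KO and 10.07 ± 0.26 in WT (SD, n = 5 each; adjusted p = 0.687). Its lower WT mean leaned on WT 1, at 9.61, where the other WT arrays were 10.10 to 10.22. Rab9, which returns mannose 6-phosphate receptors to the Golgi, had the second highest difference of the group at 0.50 ± 0.31 (SE; adjusted p = 0.581), which was 0.16 without WT 1. Rab34, which positions lysosomes and takes part in cilium formation, had the lowest difference, -0.46 ± 0.28 (SE). Its signal was 7.29, 6.76, 6.95, 6.04 and 7.70 in KO, against 6.75, 7.65, 7.60, 7.59 and 7.45 in WT, and the groups overlapped (adjusted p = 0.572). Leaving out KO 21 gave -0.23, and leaving out KO 23 gave -0.65. Rab12 was 8.11 ± 0.14 in KO and 8.35 ± 0.09 in WT (SD, n = 5 each; adjusted p = 0.462). Rab7b, Rab39b and Rab36 had differences of 0.23, -0.24 and -0.37, with adjusted p-values of 0.751, 0.856 and 0.510. Rab9b and Rab39 had little signal on any array, with values of 1.65 to 2.07 for Rab9b and 1.86 to 2.55 for Rab39.

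Early endosomal Rabs receive cargo from the plasma membrane, and all 7 had a mean signal of at least 5. None was called. Rab5a, which drives fusion of early endosomes, had log2 signals of 8.48, 9.0, 9.16, 8.78 and 9.11 in KO, against 6.54, 8.44, 8.59, 8.17 and 8.22 in WT. Its difference of 0.91 ± 0.33 (SE) had an adjusted p of 0.220 and leaned on WT 1: without that array it was 0.55 (adjusted p = 0.128). Rab22a, which sorts clathrin-independent cargo, was 9.24 ± 0.16 in KO and 8.90 ± 0.16 in WT (SD, n = 5 each; adjusted p = 0.267). Rab21, a Rab of integrin traffic, was 10.56 ± 0.07 in KO and 10.47 ± 0.29 in WT; 9.95 on WT 1 was its lowest value. Rab31, Rab5b, Rab5c and Rab20 had differences between -0.32 and 0.23.

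Recycling Rabs return internalised receptors and integrins to the surface and deliver membrane to the polarised sides of an epithelial cell. None of the 13 was called. Rab11a, the central Rab of the recycling endosome, had log2 signals of 9.91, 10.15, 10, 9.88 and 10.15 in KO, against 8.50, 9.64, 9.55, 9.31 and 9.13 in WT. Every KO array lay above every WT array, and the difference of 0.79 ± 0.20 (SE) had an adjusted p of 0.0572. It fell under 0.05 without WT 1 (0.61, adjusted p = 0.0394) and without WT 2 (0.89, adjusted p = 0.0383), and stayed above 0.05 in the other 8 of 10 such fits (up to 0.167).

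Rab4a, of the rapid route back from early endosomes, lay on the other side. Its log2 signal was 6.94, 7.04, 6.53, 6.42 and 7.01 in KO, against 7.21, 7.43, 7.36, 7.39 and 7.29 in WT. Every KO array lay below every WT array, with a difference of -0.55 ± 0.15 (SE) and an adjusted p of 0.088. Its second probe set differed by -0.33. Rab10, which carries vesicles to the basolateral membrane, was 11.39 ± 0.14 in KO and 11.03 ± 0.23 in WT (SD, n = 5 each, limma adjusted p = 0.275). KO 8 and WT 4 were both 11.2 as rounded, so its groups were kept apart by less than the rounding. Rab25, an epithelial relative of Rab11a, was 9.82 ± 0.17 in KO and 9.59 ± 0.39 in WT, and Rab14, which links the Golgi and endosomes, was 9.78 ± 0.12 in KO and 9.65 ± 0.09 in WT.

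Rab8b, which with Rab8a delivers vesicles towards the cell surface and cilium, gave opposite answers from its probe sets. The brighter one was 8.27, 7.81, 7.91, 7.40 and 7.92 in KO, against 8.73, 8.70, 8.02, 8.22 and 8.23 in WT (difference -0.52, adjusted p = 0.229). The other was 7.73, 8.06, 7.67, 7.59 and 8.17 in KO, against 7.10, 7.16, 7.44, 7.43 and 7.40 in WT (difference 0.54, adjusted p over all probe sets 0.151). On the second, every KO array lay above every WT array, and the mean of both differed by 0.01. Rab8a was 8.77 ± 0.22 in KO and 8.92 ± 0.20 in WT (SD, n = 5 each). The other 6 of the group, Rab17, Rab35, Rab11b, Rab4b, Rab13 and Rab15, had differences between -0.26 and 0.22.

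**Figure D3:**
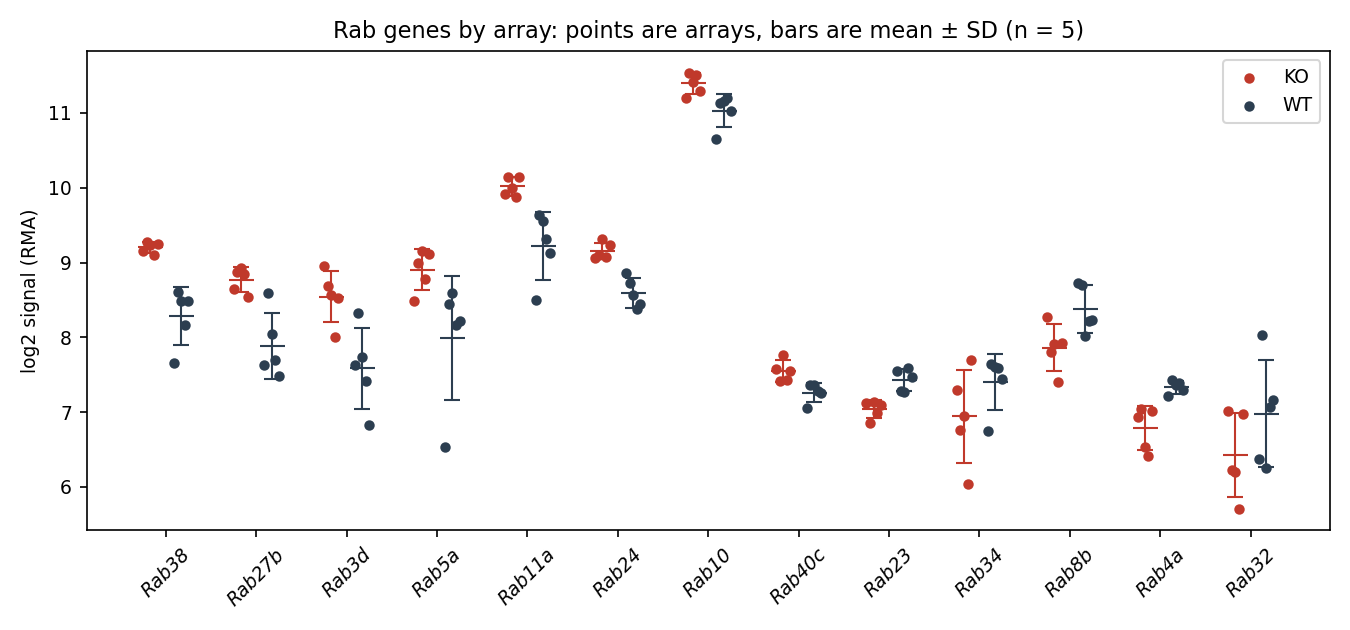
Log2 signal (vertical axis) of 13 Rab genes on each array, KO left of WT for every gene; points are arrays and bars the mean ± SD of 5. On the brightest probe set of each gene, shown here, KO points lie wholly above WT for Rab38, Rab11a, Rab24 and Rab40c. They lie wholly below for Rab23 and Rab4a. For Rab10 the lowest KO point and the highest WT point both stand at 11.2.

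Rabs of the ER and Golgi carry secretory cargo forward and back between these organelles. None of the 12 was called, and the median difference was 0.00. Rab1a, required for transport from the ER to the Golgi, was 11.52, 11.69, 11.46, 11.62 and 11.69 in KO, against 10.32, 11.22, 11.51, 11.43 and 11.28 in WT. Its difference of 0.44 (adjusted p = 0.381) was 0.24 without WT 1. Rab18, a Rab of the ER and lipid droplets, had the highest difference of the group, 0.46 ± 0.21 (SE, limma adjusted p = 0.359). Without WT 1 that difference was 0.32, and the second Rab18 probe set differed by -0.02. Rab2a, of the Golgi, averaged 10.54 in KO and 10.56 in WT, and Rab6a, of retrograde Golgi traffic, averaged 9.14 in KO and 9.13 in WT. Rab33a was near the bottom of the scale, at 2.04 to 2.49 in KO and 1.92 to 2.57 in WT. Rab33b, Rab30, Rab19, Rab1b, Rab43, Rab2b and Rab6b had differences between -0.17 and 0.22.

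Secretory Rabs of the Rab3 branch act at the granules of endocrine, exocrine and nerve cells. Of the 7 in the regulated secretion group, 2 had a mean signal of at least 5, Rab3d and Rab3a. Rab3d, found on the granules of exocrine and mast cells, had the largest difference of the family. Its log2 signal was 8.95, 8.68, 8.57, 8.01 and 8.52 in KO, against 7.63, 8.32, 7.74, 7.42 and 6.83 in WT. KO 21 lay below WT 2, and otherwise the KO arrays were above. The difference was 0.96 ± 0.25 (SE), or 1.94-fold, with an adjusted p of 0.071; over the 10 fits that left out an array it was 0.77 to 1.14 with an adjusted p of 0.0201 to 0.198, under 0.05 only without WT 2. Of 8 mast cell markers, 7 had mean signals under 5. Rab3a was 5.17 ± 0.18 in KO and 5.21 ± 0.26 in WT (SD, n = 5 each), and Rab37 was 3.22 to 3.47 in KO and 2.73 to 3.37 in WT. Rab3b, Rab3c, Rab26 and Rab44 were dim, with differences between -0.08 and 0.10.

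The remaining 5 members act in cilia, in signalling or in other ways. Rab23, a brake on Hedgehog signalling, had log2 signals of 7.12, 6.86, 7.14, 6.99 and 7.10 in KO, against 7.55, 7.28, 7.27, 7.59 and 7.47 in WT. Every KO array lay below every WT array, with a difference of -0.39 ± 0.12 (SE) and an adjusted p of 0.159. Its other probe sets differed by -0.27 and 0.12. Rab40c, a Rab with a SOCS box that joins a ubiquitin ligase, was 7.58, 7.41, 7.77, 7.43 and 7.55 in KO, against 7.05, 7.36, 7.36, 7.28 and 7.26 in WT (difference 0.28, adjusted p = 0.357). Rab28, Rab40b and Rab42 had differences between -0.20 and -0.02.

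Paralogues were set against each other by the difference of their log2 signals within each array, which asks whether 2 genes changed unequally. Of 25 pairs, 7 had an exact two-sided permutation p under 0.05 and 0 had an adjusted p under 0.05 over the 25 pairs. The smallest p that 5 arrays against 5 can give is 0.00794, which was reached by Rab11a against Rab11b: Rab11a changed by 0.79 and Rab11b by 0.12 (exact permutation adjusted p = 0.0992). A pair reaching it alone could not pass the adjustment over 25 pairs, so the count of 0 does not show that paralogues changed alike. Rab38 changed by 0.92 and Rab32 by -0.55, a difference of 1.48 (exact permutation p = 0.0159, adjusted p = 0.0992), or 1.29 without WT 2. Rab3d and Rab3a differed in their change by 1.00 with the same adjusted value, and so did Rab5a and Rab5b, by 0.79 (0.43 without WT 1). For Rab27b and Rab27a the difference was 0.69 (exact permutation p = 0.135, adjusted p = 0.307), and 0.37 without WT 5.

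Other probe sets give a check within the arrays. Of the 27 Rab genes with at least 2 probe sets of mean signal 5 or more, 18 had all of these on the same side of 0 and 9 did not. Rab38's second probe set differed by 0.63, that of Rab11a by 0.84, and the next brightest of Rab27b by 0.99. The groups overlapped on these: for Rab38 KO 8 was 8.17 and WT 5 was 8.23. For Rab11a KO 10 was 6.98 and WT 2 was 7.20. The next 2 of Rab3d differed by 0.85 and 0.59. Fitted over all 45037 probe sets, of which 1.27% were called, 1 of the 132 Rab probe sets was called, the brightest of Rab38 (adjusted p = 0.0226).

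**Figure D4:**
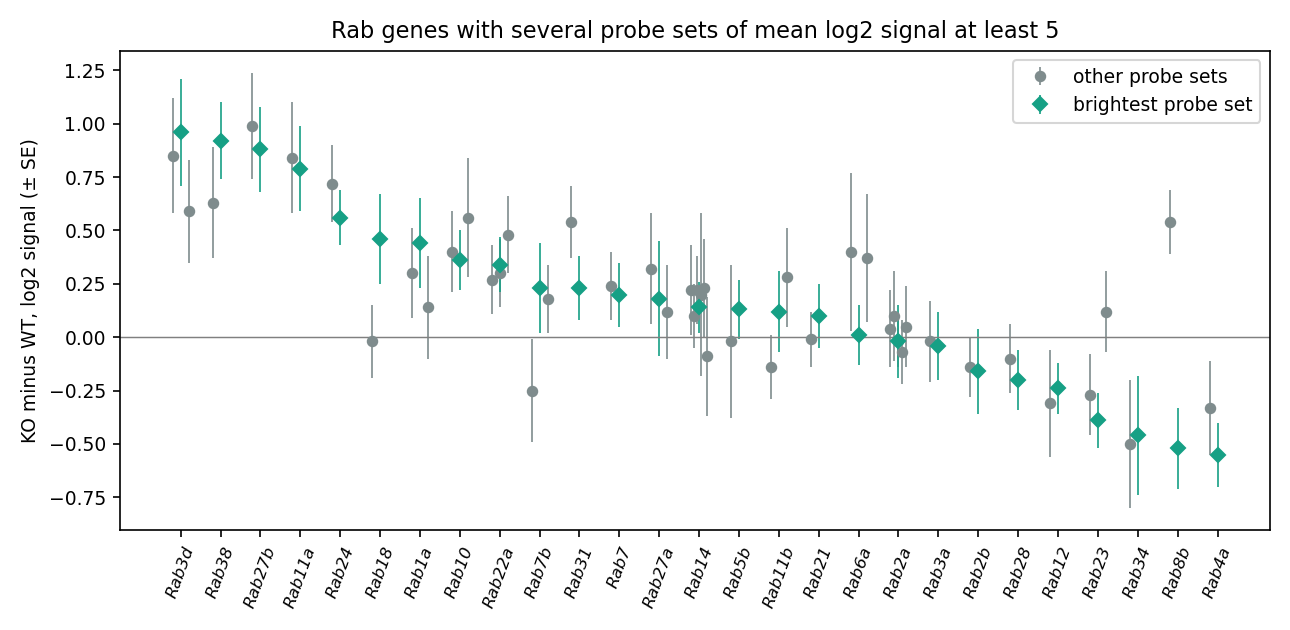
Difference between KO and WT (log2 signal, vertical axis, ± SE of the limma fit over all probe sets) for the 27 Rab genes with at least 2 probe sets of mean signal 5 or more; diamonds are the probe set that stands for the gene, circles the others. Those of Rab3d, Rab38, Rab27b, Rab11a and Rab24 all lie above 0, and the pair of Rab8b lies at -0.52 and 0.54.

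Promoter sequence is shown for 5 members with a RefSeq window, because their difference was large or their window held a motif rare among promoters. RefSeq (GRCm38.p6) gave windows of 250 bases before to 50 after a transcription start for 48 of the 59 genes, 60 windows in all among 32851; Rab38 and Rab27b were not among the 48. Of the E-box letters CACGTG, 6 Rab windows held a match (10%, against 7.15% of all windows). With 2 more bases on each side, the E-boxes of Rab24, Rab5a and Rab21 shared the palindrome GTCACGTGAC, the form known as the CLEAR site, which TFEB and related regulators of lysosomal genes read. It was picked because these Rab genes share it, and stood in 3 of the 60 Rab windows (5.0%) and in 0.326% of all windows. Lower case letters are the stretch before an annotated start and capitals mark matches to the motifs on either strand; the stretch of Rab24 runs past the start, so that its last 10 letters are that palindrome, and that of Rab21 is cut to 50 bases around them.
Rab24 (chr13:55321971-55322220, minus strand): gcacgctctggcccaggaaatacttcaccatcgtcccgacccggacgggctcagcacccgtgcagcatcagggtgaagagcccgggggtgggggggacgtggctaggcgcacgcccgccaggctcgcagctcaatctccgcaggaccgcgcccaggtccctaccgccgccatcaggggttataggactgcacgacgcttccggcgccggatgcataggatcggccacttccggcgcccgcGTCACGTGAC
Rab5a (chr17:53478984-53479233, plus strand): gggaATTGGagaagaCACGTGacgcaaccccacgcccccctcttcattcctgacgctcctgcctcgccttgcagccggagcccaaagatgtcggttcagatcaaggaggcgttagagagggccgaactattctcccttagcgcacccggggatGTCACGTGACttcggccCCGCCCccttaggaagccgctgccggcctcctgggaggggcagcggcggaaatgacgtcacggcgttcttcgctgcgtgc
Rab21 (chr10:115315594-115315643, minus strand): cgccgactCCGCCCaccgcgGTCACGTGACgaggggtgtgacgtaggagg
Rab11a (chr9:64737757-64738006, minus strand): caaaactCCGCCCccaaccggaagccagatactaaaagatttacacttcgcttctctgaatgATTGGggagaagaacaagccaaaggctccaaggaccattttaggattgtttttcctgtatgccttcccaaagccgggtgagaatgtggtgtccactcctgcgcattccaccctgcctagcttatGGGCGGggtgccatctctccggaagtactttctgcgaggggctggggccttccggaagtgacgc
Rab3d (chr9:21918184-21918433, minus strand): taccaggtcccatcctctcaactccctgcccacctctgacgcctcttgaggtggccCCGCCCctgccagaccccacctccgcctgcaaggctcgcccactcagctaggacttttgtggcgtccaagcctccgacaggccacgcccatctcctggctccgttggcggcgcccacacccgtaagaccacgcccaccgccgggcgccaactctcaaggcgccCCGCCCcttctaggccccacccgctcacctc
Capitals outside the E-boxes are GC boxes (GGGCGG, or CCGCCC on the other strand) in Rab5a, Rab21, Rab11a and Rab3d, and a CCAAT box (CCAAT, or ATTGG on the other strand) in Rab5a and in Rab11a. The GC box was in 41 of the 60 Rab windows (68.3%, against 35.7% of all windows) and the CCAAT box in 26 (43.3%, against 37.4%). The TATA box (TATAAA) was in 4 (6.67%, against 13.6%), and the AP-1 letters TGANTCA in 3 (5.0%, against 7.81%). A match says only that the letters are there. Of the 3 genes with the palindrome, Rab24 differed by 0.56, Rab5a by 0.91 and Rab21 by 0.10 between KO and WT.

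The proteins that load, unload and read the Rabs were described from lists of known regulators. Of 206 regulators, effectors and tethers, 5 were called higher and 1 lower (2.91%, against 2.65% of all genes), with a median difference of 0.08. Of 41 GTPase-activating proteins 2 were higher. Rabgap1l, of the TBC family, was 6.86, 7.04, 7.44, 7.36 and 6.83 in KO, against 5.54, 6.10, 6.15, 5.85 and 5.06 in WT, with no overlap (difference 1.36 ± 0.22 SE, 2.58-fold, adjusted p = 0.004). Its probe sets disagreed: of the other 4, one differed by 2.14 and the rest by -0.01, 0.03 and 0.11, and the mean of all 5 differed by 0.73 (adjusted p = 0.0201). Tbc1d14, a TBC protein that binds Rab11 and restrains autophagy, was 7.88 ± 0.28 in KO and 7.0 ± 0.40 in WT (SD, n = 5 each; adjusted p = 0.0405); that call held in 3 of the 10 fits that left out an array (adjusted p up to 0.124).

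The list of 75 effectors, drawn broadly enough to hold a kinase and a dynein regulator, gave 2 calls higher and 1 lower. Osbpl1a, an oxysterol-binding protein that acts with Rab7 on late endosomes, was 7.40 ± 0.17 in KO and 6.57 ± 0.20 in WT (adjusted p = 0.00634). Ndel1, a dynein regulator, was 8.66 ± 0.16 in KO and 7.97 ± 0.25 in WT (adjusted p = 0.0263). Lrrk1, a kinase of the LRRK family, was lower, at 6.61 ± 0.19 in KO and 7.28 ± 0.29 in WT (adjusted p = 0.0461), a call that held in 2 of the 10 fits without 1 array (adjusted p up to 0.132). The list of 20 tethers gave 1 call, Snap29, which is a SNARE of autophagosome fusion and not itself a tether. Snap29 was 7.41 ± 0.26 in KO and 6.64 ± 0.30 in WT (SD, n = 5 each throughout, limma adjusted p = 0.036). Its call held in 2 of those 10 fits (adjusted p up to 0.115). The call for Ndel1 held in 6 of them, and those for Rabgap1l and Osbpl1a in 10 of 10. None of 51 exchange factors passed; the smallest p was that of Rabgef1, which activates Rab5, at 7.82 ± 0.16 in KO and 7.38 ± 0.20 in WT (adjusted p = 0.151).

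None of 19 genes of prenylation and GDP dissociation passed, with Chm, the Rab escort protein 1 gene, nearest at 0.50 (adjusted p = 0.35; 0.31 without WT 1). None of 12 genes of Rab-like proteins or other proteins with a Rab-type fold, and none of 17 Arf and Arl genes, passed either. Their smallest p-values were those of Rap2b (difference -0.25, adjusted p = 0.556) and of Trim23 (0.52, adjusted p = 0.486; 0.27 without WT 1).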

How the data were processed

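The deposited values are log2 signals, and the submitters' processing notes name RMA as the authors' method; further steps are not given in the sources used here. The table held 45101 probe sets, of which 64 were Affymetrix controls. Gene names came from the platform annotation, updated to RefSeq symbols: 34945 probe sets had 1 gene, 932 several and 9160 none, and 34741 matched the RefSeq table. One probe set per gene, the brightest over 10 arrays and annotated to that gene alone, gave 18193 genes. KO minus WT was tested with limma 3.58.1 (lmFit, eBayes) in R 4.3.3, with Benjamini-Hochberg adjustment over all genes and a threshold of 0.05; a difference of log2 signals is given with its SE. No value column was left out, and no filter on low values was set. Paralogue pairs were compared by exact permutation of 252 assignments. The fit was tested on simulated data of 18193 genes: 73 of 100 genes changed by 1 on the log2 scale were recovered, and 96 of 100 changed by 2. The simulated noise was independent between genes, with no array set apart as WT 1 was, and no change under 1 was tried. These rates therefore do not say how often differences as small as most Rab differences would be called.

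The members and lists were chosen with earlier results of these data known, so no gene's p is adjusted over a list alone; the paralogue p-values are adjusted over the pairs compared. Genes were named by rule: Rab genes past the threshold, without overlap, the 8 brightest and 4 dimmest, and the 4 largest differences each way; in each list, up to 4 called genes, or else the one with the smallest p. Signals of different probe sets are not compared as levels. The number of arrays limits the precision.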

Additional observations from a re-analysis of the deposited data

Results flagged for a closer look

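Of 46 groups of 5 arrays, for 23 named Rab genes, 8 held an array far from the other 4 of its group by Dixon's ratio (above 0.71 for 5 arrays); chance gives about 1 in 20. Array WT 1 gave 6 of these: Rab1a at 10.32, Rab21 at 9.95, Rab7 at 9.61, Rab5a at 6.54 and Rab34 at 6.75 were the lowest WT values, and Rab39 at 2.55 was the highest. Rab39 at 2.26 on KO 8 and Rab37 at 3.47 on KO 9 were the highest KO values, both from dim probe sets.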

How the results depend on the processing

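The 3 Rab calls shrank or grew with the setting, while no setting turned the direction of Rab38, Rab27b, Rab24, Rab11a, Rab3d, Rab4a or Rab23. Leaving out 1 array at a time gave 1 to 4 Rab genes higher, 0 lower, 2 to 6 regulators higher, 0 to 2 lower, a Rab median of 0.02 to 0.05 and 0 to 4 Rab probe sets called, while over all 18193 genes 264 to 419 were higher and 13 to 107 lower. Rab38 was the lone Rab call without KO 8, KO 9, KO 10, KO 21, WT 3, WT 4 or WT 5. Averaging all probe sets of a gene left 1 Rab gene higher, beside 428 of all genes, and Rab8b was then 0.01. With array weights 6 Rab genes were higher and 2 lower, 17 regulators were higher and 4 lower, 11 Rab probe sets were called, and 877 genes were higher and 561 lower in all. With a filter on dim genes 8 regulators were higher and 2 lower, and the Rab median was 0.11. Of all 10746 genes kept, 427 were then higher and 75 lower. Without WT 1, WT 2 and KO 8 together 0 regulators were lower and 4 Rab probe sets were called. With medians aligned, or with the melanocyte sum as a covariate, 0 regulators were lower. Of all genes, 43 were lower without the 3 arrays, 40 with medians aligned and 89 with that sum. Outside the main fit the share of all probe sets called was not taken. With the array number as a covariate, which runs with genotype, 0 Rab genes, regulators or Rab probe sets were called, as were 0 of all genes. Differences were then 0.55 for Rab38, 1.04 for Rab27b, 0.76 for Rab24, 1.26 for Rab3d and 1.57 for Rabgap1l; Rab1a was -0.01, Rab21 -0.30, Rab7 -0.28, Rab5a -0.02, Trim23 -0.18, Rab39 0.21 and Rab33a 0.16. The exact rank-sum test could call no gene, since its smallest p with 5 arrays against 5 is 0.00794 and its smallest adjusted p here was 0.181. Its counts of 0 say nothing about stability. In that test 12 Rab genes had an unadjusted p under 0.05, a share that was not taken over all genes, so it has nothing to be read against. Differences near 0 changed sign: Rab21 was 0.00 without the 3 arrays and -0.01 with the melanocyte sum; Rab39 was 0.00 without the 3 arrays, 0.03 with weights and 0.07 with the melanocyte sum; Rab33a was 0.05 with that sum. Over the fits without 1 array, Rab33a was -0.10 to 0.07, Rab2a -0.16 to 0.07, Rab21 -0.03 to 0.14 and Rab39 -0.13 to 0.07. The cause was not tested. No paired analysis was possible because no replicate number is shared by KO and WT. Probe sets with a mean under 5 limit what can be said of 15 Rab genes.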
